A study of Mus musculus with 6 samples.

Results

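Interferon response and antigen presentation genes were followed across the cell types of the hypothalamic-pituitary-adrenal axis of the mouse. The set held 36 genes of the 27998 listed in the count matrices, found by their symbols, and each symbol matched 1 gene. They fall into 12 interferon-stimulated genes, 4 transcription factors of the response, 5 interferon-inducible GTPases, 5 MHC class I genes, 3 genes of class I peptide loading, 3 immunoproteasome subunits and 4 MHC class II genes. Single cells were sequenced by the 10x Genomics v2 droplet method from 3 tissues of C57BL/6 mice aged 10 weeks: the PVN (the hypothalamic paraventricular nucleus), the pituitary and the adrenal. For each of the 3 tissues, 1 library came from undisturbed controls and 1 from mice after 21 days of chronic social defeat, a paradigm in which a mouse is repeatedly exposed to an aggressive one. Each of the 6 libraries was made from a pool of 5 mice, perfused with cold saline before dissection. Adrenals were digested with collagenase but the other tissues with papain, so tissue and dissociation cannot be told apart.

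With 1 library per tissue and condition there was no replicate, no test between conditions within a tissue was possible, a test over the 3 tissues was not made, and every interval below is an exact 95% interval for counting error only. Levels are unique molecular identifiers (UMIs) of a gene summed over the cells of a class and scaled to 1000000 UMIs of that class in that library (CPM). A stress ratio is log2 of the stress level over the control level with 0.5 UMI added, and a gene was counted as higher or lower when it differed at least 1.5-fold with at least 50 UMIs over both libraries. The libraries held 2330 to 5202 barcodes with 29059956 to 53244403 UMIs, and 2161 to 4944 cells per library were kept. Any pair of libraries shared 10 to 39 barcodes, at most 0.97% of the smaller library. Cell classes came from clustering without the 36 genes and were named from marker genes that excluded them, so each name stands for cells that are like that type. All 9 endothelial markers were found in the PVN endothelial cluster and all 8 in the clusters of the pituitary and adrenal, all 10 microglial markers in the PVN microglia, and 8 to 10 of 10 macrophage markers in the macrophage clusters. More adrenal barcodes of the stress library than of the control library exceeded the limit on mitochondrial UMIs (378 against 130). Exons of 16 of the 36 genes overlap an exon of another annotated gene, among them Psmb9 and Tap1 on opposite strands. The strand setting of the counting was not given in the sources used here, so these levels, and those of the near-identical H2, Ifit and Gbp family members, are uncertain between neighbours and copies.

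Interferons are secreted when a cell senses foreign nucleic acid or when lymphocytes are activated. Type I interferons act through a factor that contains STAT2 and IRF9 and binds the interferon-stimulated response element (ISRE), whereas interferon gamma acts on the gamma-activated sequence (GAS) and through IRF1. Products of the induced genes block viral entry (Ifitm3), bind viral RNA (Ifit1, Ifit2, Ifit3), modify proteins (Isg15), tether virions (Bst2) or deplete nucleotides used by viral polymerases (Rsad2, viperin). MHC class I molecules, a heavy chain with B2m, carry peptides cut by the immunoproteasome (Psmb8, Psmb9, Psmb10) and moved by the TAP transporter to the cell surface of nearly all nucleated cells. MHC class II molecules (H2-Aa, H2-Ab1, H2-Eb1) and their invariant chain Cd74 are best known from macrophages, dendritic cells and B cells.

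The promoters of 6 genes of the set, all of which hold a match of the core of the ISRE, are shown first. They are given as the 160 bases before the start of each gene on the strand of the gene (RefSeq, GRCm38.p6). The core is GAAA, any 2 bases and GAAA again, and every match on either strand is in capitals.
Ifit1, chr19:34640729-34640888, plus strand: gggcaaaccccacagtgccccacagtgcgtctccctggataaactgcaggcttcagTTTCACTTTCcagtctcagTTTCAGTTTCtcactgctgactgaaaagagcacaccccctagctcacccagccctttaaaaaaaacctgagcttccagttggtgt
Ifit3, chr19:34583369-34583528, plus strand: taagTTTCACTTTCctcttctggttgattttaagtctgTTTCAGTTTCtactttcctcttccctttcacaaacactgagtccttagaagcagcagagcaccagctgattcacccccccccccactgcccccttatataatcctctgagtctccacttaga
Isg15, chr4:156200819-156200978, minus strand: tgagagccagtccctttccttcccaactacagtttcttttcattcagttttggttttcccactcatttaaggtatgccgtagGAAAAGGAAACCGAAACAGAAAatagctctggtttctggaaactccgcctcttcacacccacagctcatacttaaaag
Rsad2, chr12:26456453-26456612, minus strand: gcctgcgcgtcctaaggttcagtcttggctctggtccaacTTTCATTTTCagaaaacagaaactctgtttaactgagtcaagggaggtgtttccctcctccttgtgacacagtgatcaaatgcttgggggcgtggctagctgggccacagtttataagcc
Igtp, chr11:58199396-58199555, plus strand: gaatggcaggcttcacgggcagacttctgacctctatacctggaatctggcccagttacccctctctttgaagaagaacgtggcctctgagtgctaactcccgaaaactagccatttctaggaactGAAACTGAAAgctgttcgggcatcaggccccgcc
B2m, chr2:122147527-122147686, plus strand: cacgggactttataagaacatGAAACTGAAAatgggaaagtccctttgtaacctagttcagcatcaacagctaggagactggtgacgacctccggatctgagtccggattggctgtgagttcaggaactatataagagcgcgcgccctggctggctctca

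Counted from the start of the gene, the matches lay at -104 and -85 in Ifit1, at -156 and -122 in Ifit3, at -120 in Rsad2, at -34 in Igtp and at -139 in B2m. Isg15 held 3 overlapping matches beginning at -78, -72 and -66. Ifitm3 is not shown, and its matches began after the start, at 3 and 20. A RefSeq promoter window of 300 bases, from 250 before to 50 after the start, was found for 31 of the 36 genes. The ISRE core was present in 14 of these 31 genes (45.2%). Some genes had more than 1 window. Counted by window, the core was present in 14 of 36 windows of the set (38.9%), compared with 3.44% of all 32851 promoter windows of the same length. By gene, the core was found in 5 of 5 GTPases, 6 of 10 interferon-stimulated genes, 2 of 5 class I genes and 1 of 4 transcription factors. It was in none of the 2 peptide loading, 3 immunoproteasome and 2 class II genes with a window. The GAS letters TTCNNNGAA, which read the same on both strands, were present in 8 of 31 genes (25.8%). By window they were present in 8 of 36 (22.2%), against 8.30% of all windows. A GAS match overlaps an ISRE match in Bst2 and in Ifitm3. These matches describe letters, not bound sites.

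Endothelial cells carried the interferon-stimulated genes at higher levels than the resident immune cells in all 3 tissues. In the PVN and the pituitary, the level of each of the 12 interferon-stimulated genes was higher in endothelial than in immune cells in both libraries, and in the adrenal 11 were higher in the control library and 12 in the stress library. All 5 GTPases, which attack the membranes of vacuoles that hold intracellular parasites, were likewise higher in endothelial cells in each of the 6 libraries. Over all 36 genes, endothelial cells held the higher level for 26 and 28 genes in the PVN (control and stress), for 29 in both pituitary libraries and for 29 and 30 in the adrenal. Most genes of any kind lay the same way. Among all genes with at least 50 UMIs over both classes, the endothelial level was the higher for 64.4% and 62.8% (PVN), for 73.1% and 76.3% (pituitary) and for 72.1% and 74.0% (adrenal). With the same minimum, the set held 24 of 30 and 26 of 32 in PVN libraries and 29 and 30 of 36 in adrenal ones. Pituitary libraries had 20 of 27 and 24 of 31, close to the share of all genes.

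**Figure D1:**
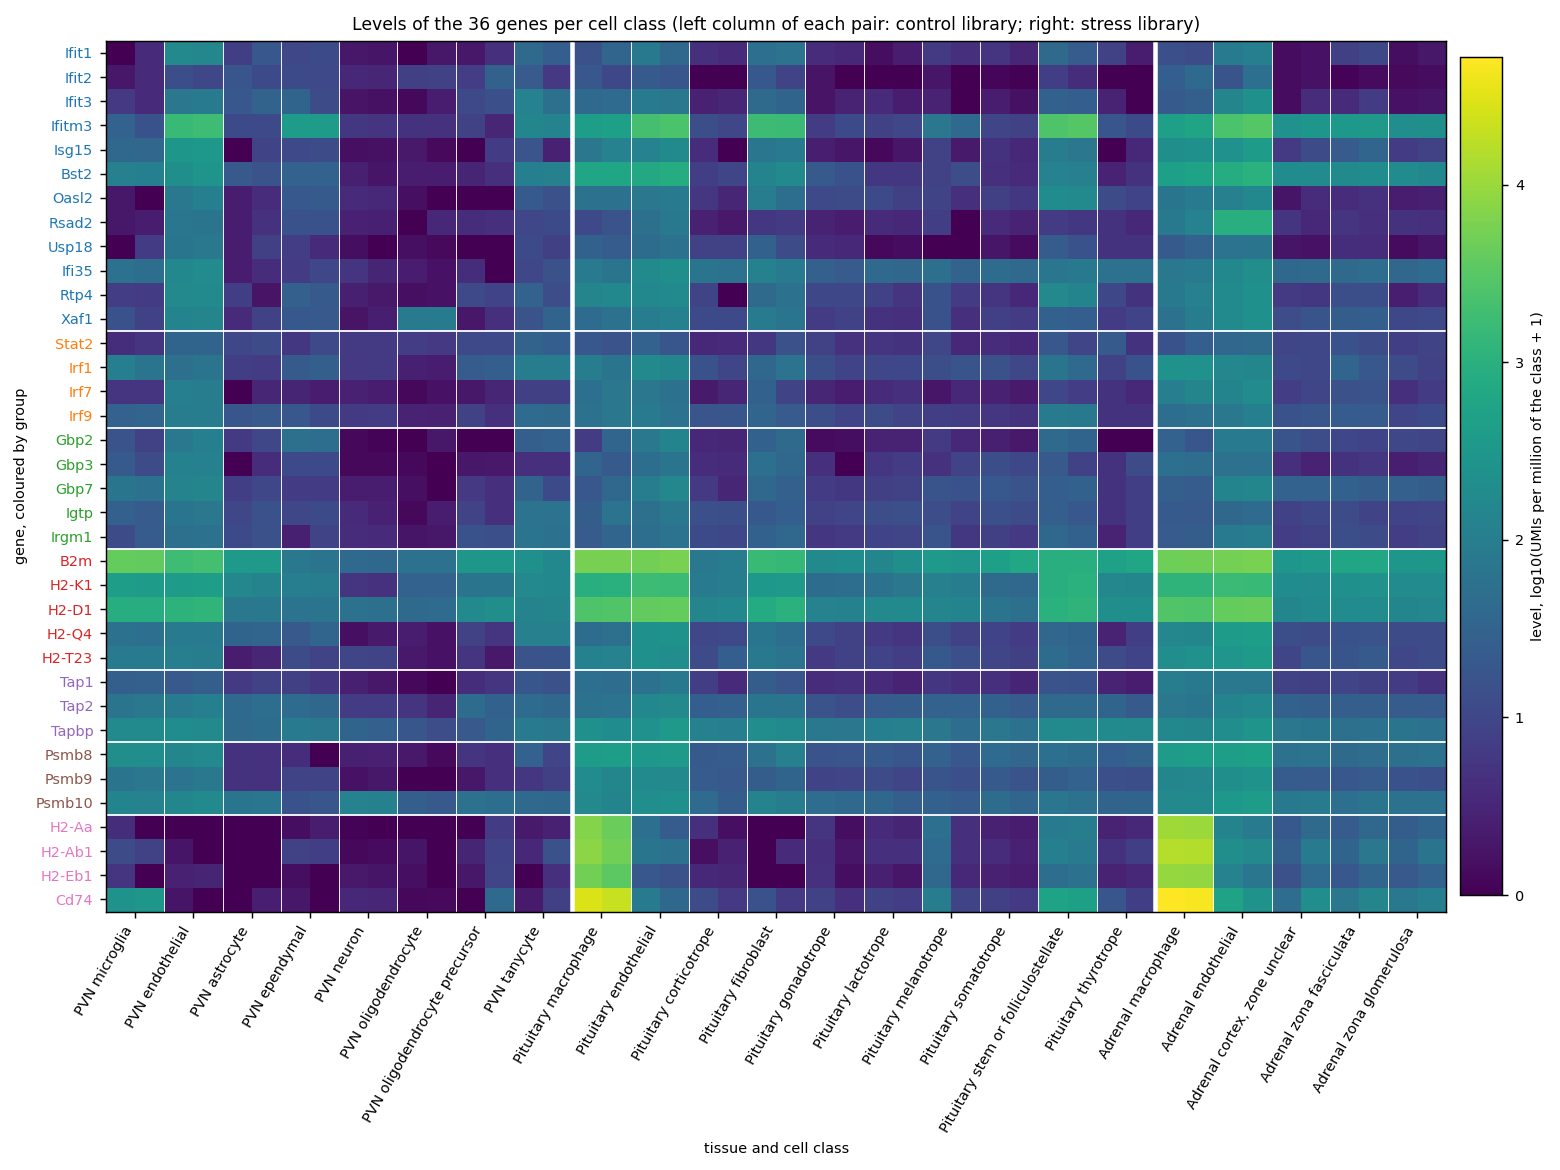
Level of each of the 36 genes (rows, grouped by role) in the cell classes of the 3 tissues (columns, control and stress side by side), in CPM of the class on a log10 colour scale after adding 1. Brighter cells are higher levels. Endothelial columns are bright for Ifitm3 (1484 and 1754 in the PVN), and the class II rows are brightest in the macrophages of the pituitary and adrenal.

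Ifitm3, which hinders the fusion of enveloped viruses with the endosome, stood at 1484 and 1754 CPM in PVN endothelial cells (control and stress), at 2108 and 2381 in pituitary endothelial cells and at 2446 and 3010 in adrenal endothelial cells. The immune cells of the same libraries held 28.8 and 14.4 (PVN microglia), 437 and 465 (pituitary macrophages) and 468 and 571 (adrenal macrophages). The endothelial and immune levels did not overlap in any tissue. Isg15, a ubiquitin-like protein attached to others, showed 312 and 333 against 39.1 and 34.5 in the PVN, 121 and 177 against 71.8 and 124 in the pituitary, and 242 and 396 against 227 and 237 in the adrenal. The gap was thus wide in the PVN, and the adrenal control levels of Isg15 lay within each other's counting interval (207 to 281 and 206 to 248.6). Ifit1 reached 163 and 151 in PVN endothelial cells, with 0 and 2 UMIs in the 216 and 173 microglia. Bst2, also named tetherin, was higher in endothelial cells by a smaller margin, at 222 and 281 against 114 and 108 in the PVN and at 691 and 843 against 598 and 621 in the pituitary. Of the GTPases, Gbp7 was at 129 and 139 in PVN endothelial cells against 67.9 and 57.5 in microglia, and Irgm1 at 83.0 and 94.1 in adrenal endothelial cells against 21.3 and 23.4 in macrophages. A count of 0 of Ifit1 over the control microglia allows a level of up to 3.09 CPM.

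Rsad2, or viperin, was far higher in the adrenal endothelium than in that of the other tissues. Adrenal endothelial cells held 950 (interval 880 to 1025) and 904 (854 to 956) CPM, with a UMI in 95.5% and 86.8% of cells at full depth. The PVN endothelial cells held 69.6 and 64.8, and those of the pituitary 54.9 and 79.1. Adrenal mural cells, only 19 and 28 of them, held 497 and 495, and adrenal macrophages 79.6 and 123. The Rsad2 level of adrenal endothelium therefore lay above that of every other named class, in both conditions. A second adrenal cluster with all 8 endothelial markers (56 and 78 cells, led by Esm1, Igfbp3 and Npr3), had a median depth of 19200.5 UMIs and a marker score too low for a name, and it held 98.9 and 132.

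Against the parenchymal cells of the same library (the neurons and glia, hormone-producing cells, or cortical and chromaffin cells), the 36 genes were compared only where at least 50 UMIs were counted over the compared classes in each library, and counted as higher at a 2-fold excess in both libraries. In PVN endothelial cells 30 of 33 measured genes met this, beside 12.3% of all genes measured. Median log2 ratios were 3.92 in the control and 4.30 in the stress library, against -0.47 and -0.56 over all genes. In pituitary endothelial cells 34 of 35 met it, beside 28.1% of all genes, with medians of 3.55 in both libraries against 0.58 and 0.61. In adrenal endothelial cells 34 of 35 met it, beside 16.0%, with medians of 3.18 and 3.41 against 0.03 and -0.04. Both counts of 34 include H2-Aa, H2-Ab1 and H2-Eb1, and Cd74 of these classes was unevenly spread. In the adrenal, 3 of 132 control and 5 of 273 stress cells held 82.3% and 40.4% of its UMIs. In the pituitary, 1 of 103 control cells held 45.9%. The part of macrophage transcripts in these class II values was not tested. Cd74 missed the limit in the endothelial cells of all 3 tissues. In the PVN its log2 ratios of -0.51 and -3.25 rested on 1 and 0 endothelial UMIs and on the 0.5 UMI added. On the parenchymal side, 1 oligodendrocyte precursor of the PVN stress library held 37 Cd74 UMIs. In the pituitary (1.75 and 0.63) and the adrenal (2.85 and 0.90) Cd74 missed the limit only in the stress library. In the PVN Ifit2 and Psmb10 missed it too.

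In PVN microglia 19 of 30 measured genes were at least 2-fold higher in both libraries, beside 10.6% of all genes, with medians of 2.43 and 2.68 against -0.95 and -0.87. The 11 genes below 2-fold there were Ifit1, Ifit2, Ifit3, Ifitm3, Oasl2, Rsad2, Rtp4, Xaf1, Stat2, Gbp2 and Psmb10, so 8 of them are interferon-stimulated genes. Pituitary macrophages had 32 of 35 genes at least 2-fold higher, beside 14.6% of all genes, the exceptions being Gbp7, Ifi35 and Igtp. Adrenal macrophages had 30 of 36, beside 11.7%, the exceptions being Gbp2, Gbp7, Ifi35, Ifit1, Ifitm3 and Stat2.

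**Figure D2:**
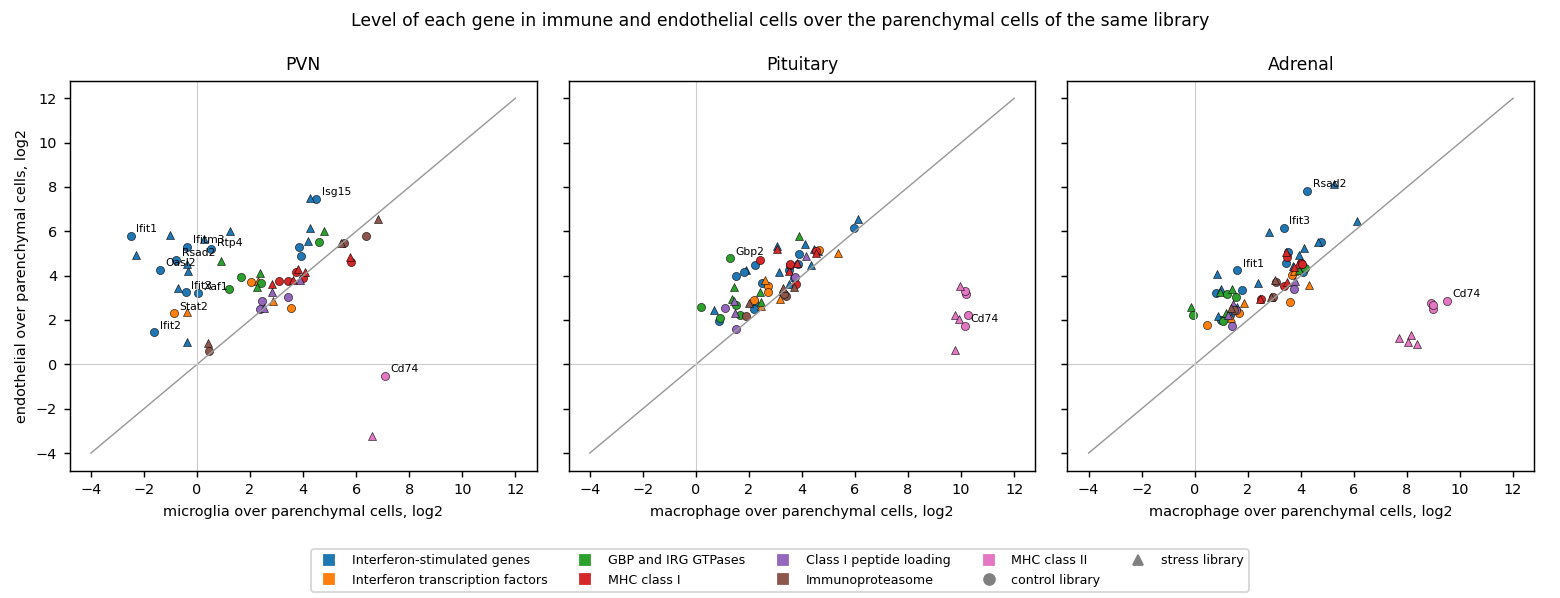
Log2 level of each gene in immune cells (horizontal) and in endothelial cells (vertical) over the parenchymal cells of the same library, per tissue; circles are control and triangles stress libraries, colours are the groups of genes, and the diagonal marks equal ratios. Nearly all interferon-stimulated genes and GTPases lie above the diagonal, and in the PVN several lie near or left of 0 on the horizontal axis. Class II genes lie far to the right and below the diagonal.

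MHC class I genes were shared by endothelial and immune cells. B2m, the light chain of every class I molecule, stood at 3970 and 3788 CPM in PVN microglia against 1760 and 2006 in PVN endothelial cells. In the pituitary the B2m levels of macrophages (5702 and 5547) and endothelial cells (5162 and 5805) overlapped, and in the adrenal the endothelial levels (5431 and 5918) lay above those of macrophages (4725 and 4939). The heavy chain H2-D1 was higher in endothelial cells in each tissue, at 1136 and 1232 against 854 and 877 in the PVN, 3887 and 3931 against 2614 and 2779 in the pituitary and 4052 and 4154 against 2716 and 2673 in the adrenal. The other classical heavy chain, H2-K1, stood at 388 and 437 in PVN endothelial cells against 418 and 411 in microglia, an overlap, and at 1705 and 1631 against 891 and 996 in the pituitary. The less polymorphic H2-Q4 followed the order of H2-D1, with 380 and 432 in adrenal endothelial cells against 149 and 143 in macrophages. H2-T23, a non-classical heavy chain, was at 288 and 371 against 209 and 238 in the same cells. The heavy chains, Tapbp, Tap1, Tap2, Psmb8, Psmb9 and the 3 H2 class II genes lie together on chromosome 17, from 33915899 (Tapbp) to 36032855 (H2-T23) in GRCm38.

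Among the loading and proteasome genes, Tapbp (tapasin, which bridges TAP and class I) ranged from 176 to 363 CPM in endothelial cells and from 143 to 229 in immune cells. Psmb8, an inducible catalytic subunit of the proteasome, was at 217 and 201 in microglia and 147 and 169 in PVN endothelial cells. In the adrenal it was at 388 and 420 in macrophages and 422 and 473 in endothelial cells. Tap2, one chain of the TAP transporter, was at 160 and 163 in pituitary endothelial cells against 57.8 and 60.9 in macrophages. Tap1, the other, overlaps Psmb9 in the annotation, so their levels are uncertain, at 97.8 and 79.5 (Tap1) and 143 and 149 (Psmb9) in adrenal macrophages. Psmb10 was the member of this group with the smallest contrast in the PVN. Its level was 96.7 and 93.8 in parenchymal cells, with 125 and 118 in neurons, against 131 and 125 in microglia and 145 and 183 in endothelial cells.

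Among the transcription factors, Irf1 was at 109 and 64.7 in microglia and 54.6 and 63.4 in PVN endothelial cells, with overlapping intervals in the stress library, and was higher in adrenal macrophages (255 and 240) than in adrenal endothelial cells (149 and 144). Irf7, the amplifier of the type I response, had the opposite order in the PVN, at 110 and 95.4 in endothelial cells against 4 and 3 UMIs in microglia. Stat2 remained at or below 41.2 CPM in the endothelial and immune classes.

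The immune cells of the PVN held far less MHC class II than most macrophages of the pituitary and adrenal. In the 2 PVN libraries the 389 microglia held 3 UMIs of H2-Aa, 16 of H2-Ab1 and 4 of H2-Eb1 in all. Their Cd74 level was 254 and 319 CPM, with a UMI in 35.6% and 30.6% of cells against 1.76% and 1.20% of neurons (median depths 4332 and 3571 UMIs in microglia, 10758 and 10744 in neurons). Thinned to 1000 UMIs per cell, these shares were 16.7% and 15.0% in microglia and 0.38% and 0.06% in neurons. The perivascular macrophages of the PVN, 14 and 18 cells, held 36 and 7 UMIs of Cd74 and 2 UMIs of H2-Aa in all.

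In pituitary macrophages, Cd74 stood at 28925 and 20813 CPM (control and stress), H2-Aa at 6832 and 4304, H2-Ab1 at 7957 and 5066 and H2-Eb1 at 5070 and 3417. Cells were split: Cd74 was found in 80.9% and 73.6% of them, with medians of 50 and 9 UMIs per cell. The larger pituitary macrophage cluster (86 and 83 cells, led by the class II genes, Lyz2 and Ms4a7, although the 36 genes took no part in clustering) held Cd74 at 35458 and 26374. The smaller (24 and 27 cells, led by P2ry12, Trem2 and Csf1r) held it at 470 and 496, with 3 and 0 UMIs of H2-Aa. The P2ry12-led cells thus resembled PVN microglia in having Cd74 with few H2-Aa UMIs. In adrenal macrophages every cell had a Cd74 UMI, with medians of 345 and 305, and the level was 52274 and 47622 CPM. H2-Aa there was at 11295 and 10232, H2-Ab1 at 15398 and 14800 and H2-Eb1 at 9500 and 9067.

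The stem or folliculostellate cells of the pituitary (151 and 185 cells) are the marginal-zone and agranular cells of the gland. Among the pituitary parenchymal classes they had the highest level for 29 of the 36 genes in both libraries. This ranking used no UMI minimum, and the share over all genes was not counted. The Ifitm3 level of these cells, 2638 and 2938 CPM, lay above that of pituitary endothelial cells (2108 and 2381). Oasl2, related to the sensors of double-stranded RNA, was at 194 and 173 against 73.2 and 84.3 in endothelial cells. H2-K1 was at 945 and 1045, H2-D1 at 1045 and 1174 and B2m at 913 and 964 in the same cells.

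These cells also held class II transcripts. Cd74 was at 537 (interval 499 to 576) and 477 (447 to 509) CPM, against 6.90 and 5.28 in somatotropes, the growth hormone cells. H2-Aa was at 91.6 and 93.0, H2-Ab1 at 107 and 82.1 and H2-Eb1 at 49.0 and 58.0. The UMIs were unevenly spread, with a median of 2 Cd74 UMIs per cell, and the 25 of 151 and 32 of 185 cells with at least 10 held 66.5% and 68.2% of them. A Cd74 UMI was found in 72.2% and 68.1% of these cells (median depths 7426 and 7613) against 7.08% and 5.93% of somatotropes. After thinning to 1000 UMIs per cell the shares were 29.1% (interval 22.04 to 37.1) and 27.0% (20.8 to 34.0) against 0.83% and 0.61%. The 10 macrophage markers, summed, were at 8.52 and 10.5 CPM in the stem or folliculostellate cells, close to 10.7 and 10.0 in somatotropes and far below 28369 and 29178 in macrophages. H2-Ab1 counted 0.198 and 0.172 UMIs per Cd74 UMI in stem or folliculostellate cells and 0.275 and 0.243 in macrophages.

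**Figure D3:**
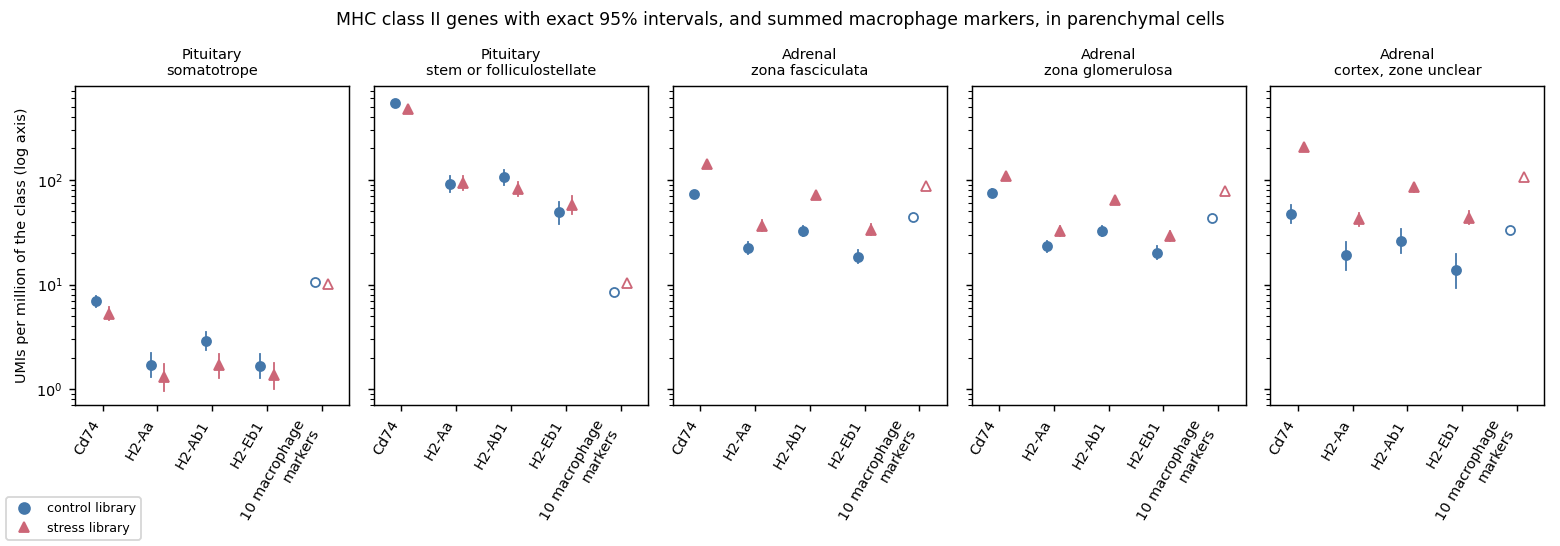
Levels of the 4 class II genes (filled symbols, bars are exact 95% intervals) and of 10 summed macrophage markers (open symbols) in 5 parenchymal classes, in CPM on a log axis; circles are control and triangles stress. In stem or folliculostellate cells Cd74 is at 537 and 477 with the macrophage markers near 10, whereas in the adrenal cortex the stress symbols of class II and of the macrophage markers both lie above those of the control.

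Elsewhere in the parenchyma the genes were low, with exceptions. Tanycytes, ependymal-like cells of the third ventricle, had the highest PVN parenchymal level for 23 genes in the control and 18 in the stress library. Among them were Irf1 (96.6 and 93.5 CPM) and H2-Q4 (114 and 111). Ependymal cells held Ifitm3 at 408 and 394, more than the microglia (28.8 and 14.4). Oligodendrocytes held Xaf1, an antagonist of the apoptosis inhibitor XIAP, at 89.1 and 82.5, against 134 and 139 in PVN endothelial cells. Adrenal chromaffin cells had the highest parenchymal level for 26 and 31 genes, but only 28 and 41 such cells were counted. The counts for tanycytes and chromaffin cells used no UMI minimum, and the share over all genes was not counted.

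The other genes of the pathway, from lists chosen with earlier results of these data known, were counted by the same 2-fold rule. The shares of all genes that met it were 12.3%, 28.1% and 16.0% in the endothelial cells of the PVN, pituitary and adrenal and 10.6%, 14.6% and 11.7% in the immune cells. Of the other interferon-stimulated genes, 22 of 24 measured were at least 2-fold higher than in parenchyma in PVN endothelial cells, 19 of 23 in the pituitary and 27 of 29 in the adrenal. In immune cells these counts were 10 of 15, 17 of 23 and 20 of 28. Of the receptors and kinases of the pathway, 8 of 13 were higher in microglia, 8 of 13 in each macrophage class, and 6 of 12, 11 of 13 and 9 of 13 in the PVN, pituitary and adrenal endothelial cells. Nucleic acid sensors met the rule for 5 of 7, 6 of 7 and 5 of 9 in the immune classes and for 3 of 5, 5 of 7 and 3 of 6 in the endothelial ones. Other antigen presentation genes met the rule for 10 of 16, 8 of 17 and 12 of 19 in immune and for 6 of 15, 11 of 18 and 9 of 18 in endothelial cells.

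The second question was which of the genes differed between the stress and control libraries. In adrenal endothelial cells (132 control and 273 stress cells) 3 of the 12 interferon-stimulated genes were at least 1.5-fold higher in the stress library and none was lower. Of the 12, 11 had a ratio above 0, with a median log2 ratio of 0.41 against -0.01 over all genes of the class. Isg15 was at 242 (207 to 281) in the control and 396 (364 to 431) in the stress library, a log2 ratio of 0.71 (0.46 to 0.97). Ifit3 was at 142 and 230, with a ratio of 0.69 (0.37 to 1.03), and Ifit2 at 15.5 and 51.5, with a ratio of 1.68 (0.81 to 2.80) from 11 and 70 UMIs. In these 3 genes the counting intervals of the ratio lay above 0. Rsad2 was the one with a ratio below 0, at -0.07 (-0.21 to 0.06). Over all 36 genes, 3 were at least 1.5-fold higher, beside 3.81% of the 5593 genes measured, and 2 were at least 1.5-fold lower, beside 4.83%. The median ratio over the 36 genes was 0.19, against 0.40 for the same genes in all other adrenal cells pooled. That pooled ratio also follows the mix of classes in each library. Irf7 and Irf9, which amplify and carry the type I signal, had ratios of 0.49 (0.15 to 0.85) and 0.50 (0.05 to 0.99), below 1.5-fold, while Irf1 was at -0.05 (-0.40 to 0.31).

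The 2 lower genes of adrenal endothelial cells were Cd74 and H2-Eb1, and their direction rested on few cells. Cd74 was at 516 in the control and 269 in the stress library, a log2 ratio of -0.94 (-1.15 to -0.73). However, 5 control cells held 85.6% of its UMIs. At full depth a Cd74 UMI was found in 34.1% of control and 53.5% of stress cells. Without the 5 cells of each library with the most UMIs of the gene, a setting chosen after seeing the data, the ratio of Cd74 was 1.03 and that of H2-Eb1 1.22, in place of -0.81. Summed macrophage markers were at 655 and 546 CPM in these endothelial cells, and their part in the class II values was not tested.

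In adrenal macrophages (299 and 469 cells) 3 of the 12 interferon-stimulated genes were at least 1.5-fold higher, and of the 5 GTPases none was higher and 1 was lower. The ratio was above 0 for 11 of the 12 interferon-stimulated genes, with a median of 0.32 against 0.06 over all genes, and for 1 of the 5 GTPases. The difference between these lists was not tested. Rsad2 was at 79.6 (67.6 to 93.0) and 123 (111 to 135), a ratio of 0.62 (0.35 to 0.90). Xaf1 was at 57.8 and 93.1, a ratio of 0.68 (0.37 to 1.01), Stat2 at 14.2 and 25.01, a ratio of 0.80 (0.18 to 1.49), and Ifit2 at 24.8 and 40.8, a ratio of 0.71 (0.23 to 1.22). Gbp2 was lower, at 29.4 and 17.4, a ratio of -0.75 (-1.31 to -0.20). These were 4 higher of 36, beside 6.55% of all 6443 genes measured, and 1 lower, beside 3.86%. Within the larger macrophage cluster alone (275 and 403 cells, led by Cxcl2, Il1b and Ccl3), Rsad2 was at 84.6 and 143 and Gbp2 at 30.6 and 15.4. When the ratio in all other adrenal cells was subtracted, Rsad2 and Ifit2 of the macrophages reversed to -0.07 and -0.89. Those other cells were pooled over classes, so their ratio also follows the mix of classes. Endothelial cells, which held far more Rsad2 than macrophages, were 6.11% of the control and 9.96% of the stress cells kept. The part of this mix in the pooled ratios was not tested. The median ratio over the 36 genes was 0.06 in macrophages and 0.50 in all other adrenal cells pooled. The class II genes of adrenal macrophages had ratios between -0.14 and -0.06.

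**Figure D4:**
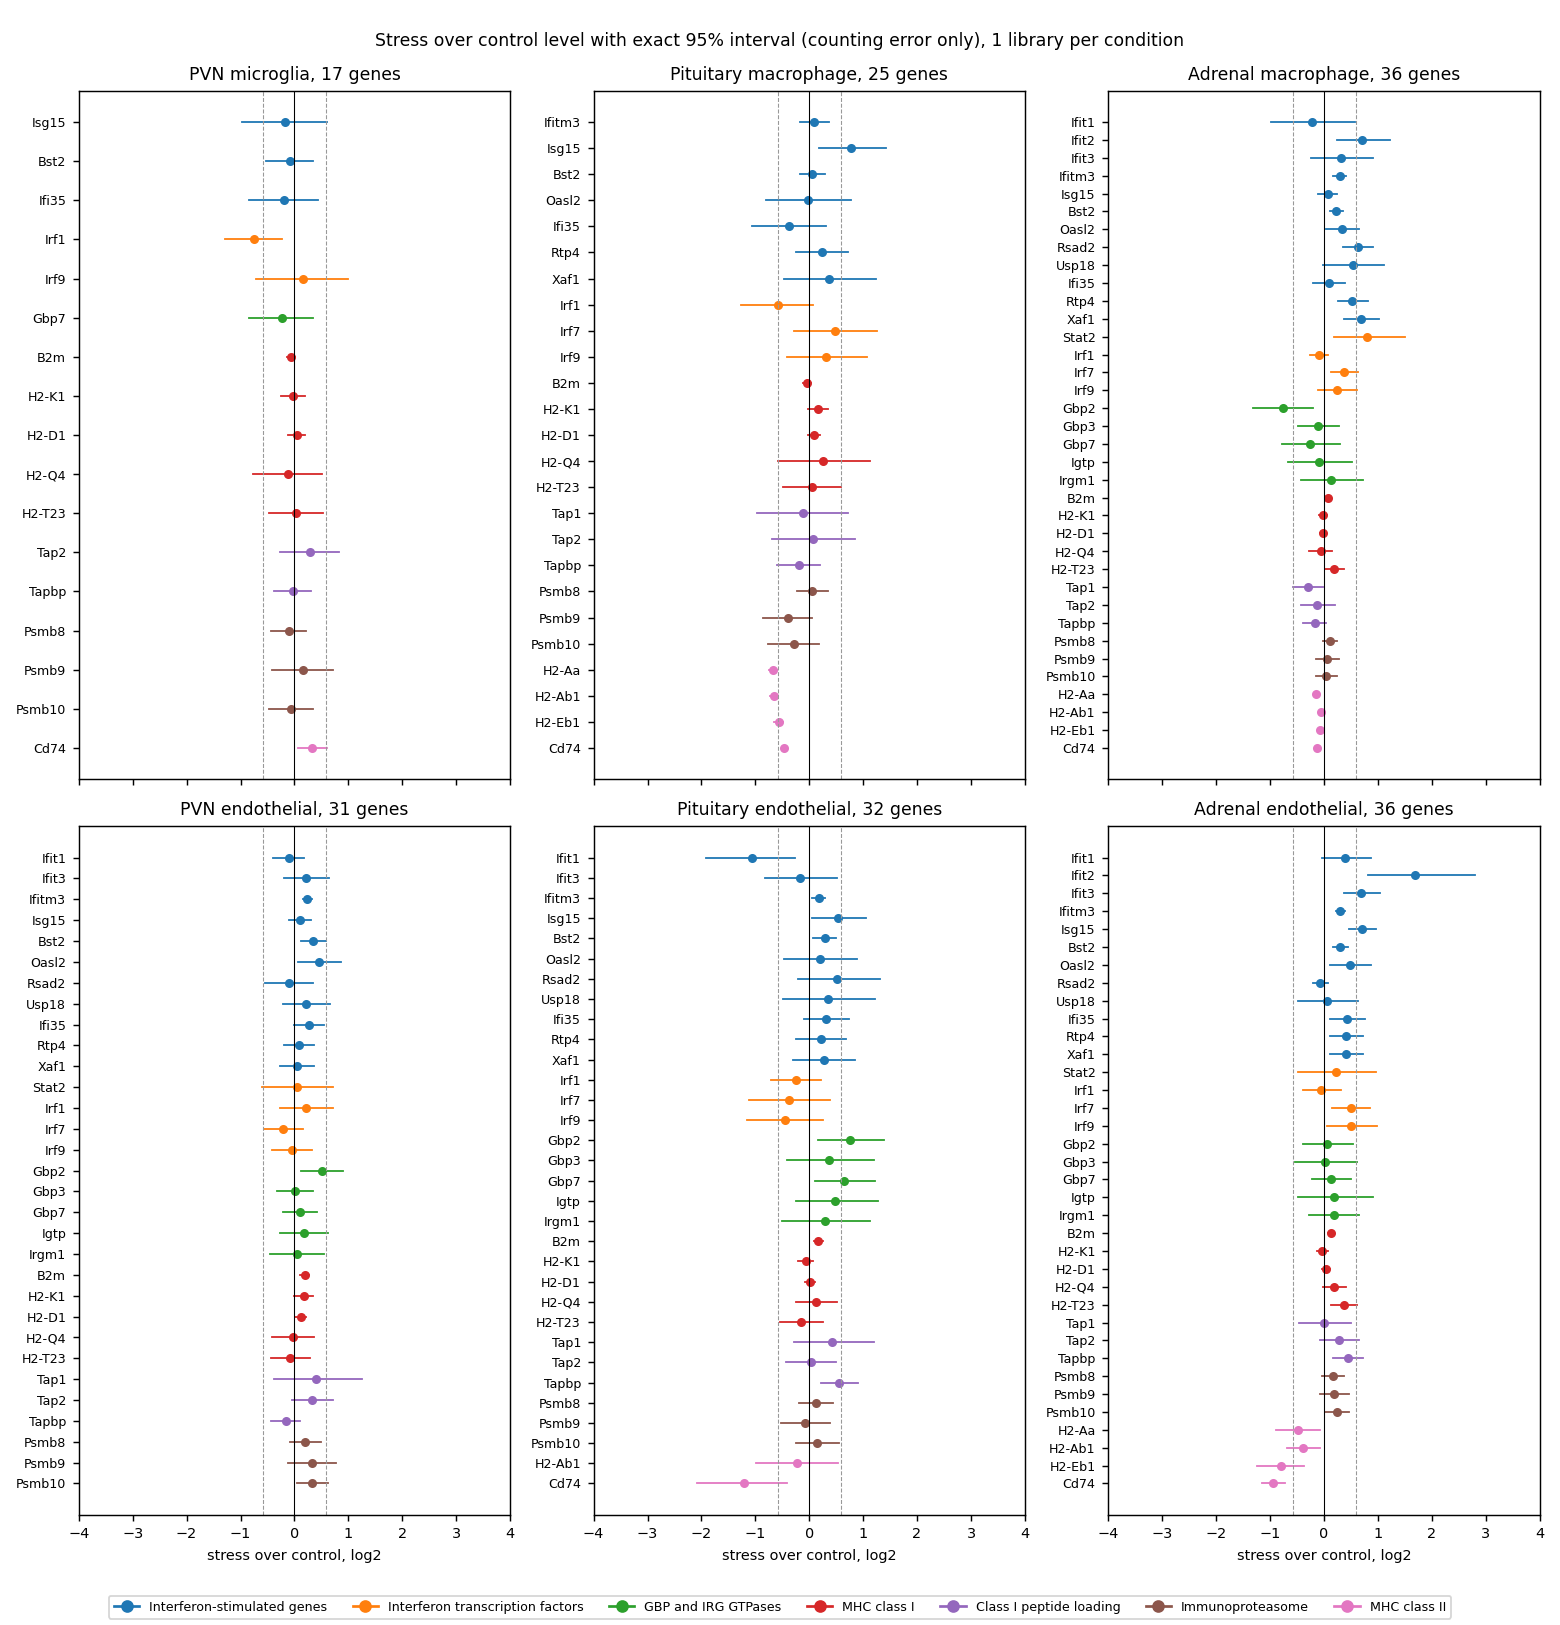
Log2 ratio of stress over control for each gene with at least 50 UMIs over both libraries, in the immune (top) and endothelial (bottom) cells of the 3 tissues; bars are exact 95% intervals, colours are the groups of genes, and dashed lines mark 1.5-fold. In adrenal endothelial cells and macrophages most interferon-stimulated genes lie above 0, with Isg15 at 0.71 in the endothelium, and in pituitary macrophages all 4 class II genes lie below 0.

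In the adrenal cortex all 4 class II genes were at least 1.5-fold higher in the stress library in zona fasciculata cells and in cortical cells of unclear zone, but only 1 of 4 was in zona glomerulosa cells, and the macrophage markers moved with them. In cells of the zona fasciculata, the source of corticosterone, Cd74 was at 73.3 and 142, a ratio of 0.95 (0.82 to 1.08), H2-Ab1 at 32.3 and 72.5, a ratio of 1.16 (0.97 to 1.36), and H2-Aa and H2-Eb1 had ratios of 0.72 and 0.86. In zona glomerulosa cells, the source of aldosterone, H2-Ab1 was at 32.5 and 63.7, a ratio of 0.97 (0.77 to 1.17), which became -0.07 at a clustering resolution of 0.5. The other class II genes of zona glomerulosa stayed below 1.5-fold, with Cd74 at 75.4 and 108, a ratio of 0.52 (0.38 to 0.66), H2-Aa at 0.49 and H2-Eb1 at 0.53. However, 13 control and 8 stress cells of zona glomerulosa, each with at least 10 Cd74 UMIs, held 50.9% and 11.25% of its Cd74. In zona fasciculata 11 and 11 such cells held 41.6% and 22.2%, and in unclear zone 1 and 8 held 25.2% and 46.1%. The contrast between the zones therefore rested in part on few cells. In cortical cells of unclear zone Cd74 was at 47.6 and 208, a ratio of 2.13 (1.84 to 2.43). A Cd74 UMI was found in 43.1% and 71.7% of zona fasciculata cells, 41.1% and 71.7% of zona glomerulosa cells and 34.9% and 70.2% of those of unclear zone, at median depths between 10332 and 12504 UMIs. The 10 macrophage markers, summed, moved with these values, from 44.3 to 87.7, from 43.5 to 77.8 and from 33.3 to 107 CPM. Macrophages were 13.8% of the control and 17.1% of the stress cells kept. The part of transcripts from macrophages in these class II values was not tested. Without the cortical cells that held a UMI of a macrophage marker, a setting chosen after seeing the data, the Cd74 ratio was 1.47 in zona fasciculata and 1.56 in cells of unclear zone, and the H2-Ab1 ratio of zona glomerulosa was 1.44. H2-Ab1 counted 0.431 to 0.589 UMIs per Cd74 UMI in zona fasciculata and zona glomerulosa, compared with 0.295 and 0.311 in macrophages. It counted 0.551 and 0.409 in cells of unclear zone and 0.411 and 0.604 in adrenal endothelial cells. H2-Aa counted 0.402 and 0.201 per Cd74 UMI in cells of unclear zone, 0.303 and 0.259 in zona fasciculata and 0.307 and 0.301 in zona glomerulosa. In macrophages H2-Aa counted 0.216 and 0.215. The source of these transcripts was not tested.

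Zona fasciculata cells also differed in genes outside class II. Irf1 was at 33.2 and 17.7, a log2 ratio of -0.90 (-1.19 to -0.62), Isg15 at 22.1 and 33.4, a ratio of 0.60 (0.34 to 0.85), and Ifit3 had 27 and 48 UMIs, a ratio of 1.10 (0.40 to 1.85). In all, zona fasciculata had 6 higher and 1 lower of 35 measured genes, beside 7.17% of all genes past 1.5-fold in either direction. Zona glomerulosa had 2 higher of 29, Irf7 being the other, beside 5.33%, and the cells of unclear zone 6 higher of 26, with Isg15 and H2-T23 beside the class II genes, beside 6.91%.

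In pituitary macrophages (110 cells in each library) 2 of the 4 class II genes were at least 1.5-fold lower in the stress library, and all 4 had a ratio below 0. H2-Aa had a log2 ratio of -0.67 (-0.74 to -0.59), H2-Ab1 of -0.65 (-0.72 to -0.58), H2-Eb1 of -0.57 (-0.66 to -0.48) and Cd74 of -0.47 (-0.51 to -0.44), the latter pair below 1.5-fold. The 5 cells with the most UMIs held 19.5% to 24.6% of these UMIs in each library. The smaller, P2ry12-led cluster made up 24 of 110 control and 27 of 110 stress cells. Within the larger cluster alone H2-Aa was at 8394 (8115 to 8680) and 5482 (5259 to 5713). Over both clusters, 67 control and 53 stress macrophages had at least 10 Cd74 UMIs. These cells held 14443 and 10841 UMIs of Cd74, or 99.6% and 99.2% of it. The part of their smaller number in the class II ratios was not tested. Isg15 was higher, at 71.8 and 124, a ratio of 0.78 (0.18 to 1.42), with 58.3% and 56.9% of its UMIs in 5 cells, and Irf1 was lower, at -0.59 (-1.27 to 0.07). These were 1 higher of 25 measured genes, beside 4.64% of all genes, and 3 lower, beside 5.78%.

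Pituitary endothelial cells had 2 higher of 32, beside 4.18% of all genes, and 2 lower, beside 4.56%. Gbp2 was at 77.8 and 132, a ratio of 0.76 (0.17 to 1.39), and Gbp7 at 98.4 and 155, a ratio of 0.64 (0.11 to 1.21), and all 5 GTPases had ratios above 0. Ifit1 was at 80.1 and 37.8, a ratio of -1.07 (-1.92 to -0.27). Cd74 was at 84.7 and 36.1, with 70.3% and 71.4% of its UMIs in 5 cells.

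Hormone-producing cells of the pituitary held low levels of these genes, and somatotropes, of which there were 3247 and 3118, had ratios below 0 for nearly all of them. Of 34 measured genes, 1 had a ratio above 0 and 8 were at least 1.5-fold lower, beside 6.25% of all genes past 1.5-fold in either direction; the median ratio was -0.38, against -0.18 over all genes. Ifit1 was at 4.19 and 2.23, a ratio of -0.90 (-1.32 to -0.51), Rtp4 at 4.45 and 2.29, a ratio of -0.96 (-1.36 to -0.57), and Irf1 at 14.1 and 9.31, a ratio of -0.59 (-0.80 to -0.39). The others were Ifit3, Isg15, Rsad2, Tap1 and H2-Ab1. B2m was the exception with a higher level, 462 (455 to 469) and 650 (642 to 658) CPM. In lactotropes, the prolactin cells, B2m was at 142 and 223, a ratio of 0.65 (0.50 to 0.80) and the 1 gene of 18 past 1.5-fold, beside 6.30%.

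In stem or folliculostellate cells 3 of 30 genes were lower, beside 5.78% in either direction: Ifit1 at -0.92 (-1.52 to -0.33), Irf1 at -0.65 (-1.10 to -0.19) and Usp18, the protease that removes Isg15, at -0.63 (-1.42 to 0.14). Melanotropes had 6 lower of 11, beside 17.7%, namely Ifitm3, Ifi35, Tapbp, H2-Aa, H2-Ab1 and Cd74. Cd74 was at -3.41 and H2-Aa at -3.66, with 76.2% of the 105 control UMIs of Cd74 in 5 cells and macrophage markers at 68.2 and 13.2 CPM. The part of these markers in that difference was not tested. Corticotropes had 1 higher (H2-T23, 1.16) and 1 lower (Psmb10, -0.84) of 11, beside 8.55%, gonadotropes 2 lower (Irf1 and Irf9) of 12, beside 7.22%, fibroblasts 1 higher (Psmb8, 0.98, but -0.14 after thinning) of 9, beside 11.1%, and thyrotropes none of 5, beside 11.5%.

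Few of the genes differed between the PVN libraries. In PVN endothelial cells none of 31 measured genes was 1.5-fold higher, beside 1.90% of all genes, and none was 1.5-fold lower, beside 3.97%, although 24 had a ratio above 0, with a median of 0.17 against -0.05. The largest were Gbp2 at 0.51 (0.13 to 0.91) and Oasl2 at 0.46 (0.07 to 0.86). Microglia had no higher gene of 17, beside 6.08%, and 1 lower, beside 2.48%. That gene was Irf1, at 109 and 64.7, a ratio of -0.74 (-1.29 to -0.24). Summed microglial markers in PVN endothelial cells were at 268 and 67.6 CPM.

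The remaining PVN classes gave few differences. Ependymal cells had 1 higher (H2-Q4, 0.80) and 2 lower of 17, beside 5.57%, Ifit3 being at 31.5 and 11.7, a ratio of -1.40 (-2.27 to -0.65). Tanycytes had 2 lower of 15, beside 7.95%, with Ifit3 at 121 and 53.7, a ratio of -1.16 (-1.80 to -0.58), and Ifit1, 91.7% of whose control UMIs came from 5 cells. Summed microglial markers were at 160 and 61.9 CPM in ependymal cells and at 209 and 67.5 in tanycytes, and their part in these values was not tested. Neurons had 2 lower of 21 (Ifi35 at -1.01 and Igtp at -0.63), beside 2.78%. Astrocytes had 1 higher of 8 (Ifit3, 0.69, interval -0.19 to 1.72), beside 6.28%, oligodendrocyte precursors 1 lower of 5 (Tap2, -0.73), beside 6.73%, and oligodendrocytes none of 6, beside 3.65%.

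Irf1, the transcription factor of the interferon gamma response, was at least 1.5-fold lower in 6 classes: PVN microglia, pituitary macrophages, gonadotropes, somatotropes and stem or folliculostellate cells, and zona fasciculata. The interval of the ratio lay below 0 in microglia, somatotropes, stem or folliculostellate cells and zona fasciculata, and reached above 0 in macrophages and gonadotropes. After thinning to 1000 UMIs the direction reversed in gonadotropes (1.13) and in stem or folliculostellate cells (1.20). In zona glomerulosa its ratio was -0.57 (-1.02 to -0.13), short of 1.5-fold. Among classes with at least 50 UMIs of Irf1, none was 1.5-fold higher. How many of all genes were lower in as many classes was not counted.

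In the wider pathway, most other interferon-stimulated genes of the adrenal classes also had ratios above 0. How many of all genes had a ratio above 0 was not counted. In adrenal endothelial cells 20 of 28 other interferon-stimulated genes had a ratio above 0, with a median of 0.22 against -0.01 over all genes. Of these 28, 3 were higher, beside 3.81% of all genes, and 1 was lower, beside 4.83%. The lower one was Cxcl10, a chemokine that attracts T cells, with 80.1 and 36.8 CPM and a log2 ratio of -1.12 (-1.70 to -0.55), and Lgals3bp was among the higher, at 85.8 and 154, a ratio of 0.83 (0.42 to 1.28). In adrenal macrophages 25 of 29 had a ratio above 0, with a median of 0.25 against 0.06 over all genes. Of these 29, 5 were higher, beside 6.55%, and 2 lower, beside 3.86%. Adar, which edits double-stranded RNA, was at 9.12 and 27.2, a ratio of 1.55 (0.83 to 2.40), and the chemokine Ccl5 at -1.14 (-1.93 to -0.38). In microglia, where 3 of 8 had a ratio above 0, Cxcl10 was at 156 and 76.2, a ratio of -1.03 (-1.52 to -0.58), and Ccl5 at 65.9 and 21.6. In zona fasciculata Cxcl10 was at 31.2 and 3.52, a ratio of -3.12 (-3.74 to -2.60). In PVN ependymal cells Cxcl10 had the opposite direction, at 14.2 and 26.1, a ratio of 0.87 (0.14 to 1.64). The direction of Socs3 differed between classes. Socs3, which restrains cytokine signalling, was at 462 and 786 in pituitary endothelial cells, a ratio of 0.76 (0.52 to 1.01), at 16.5 and 30.5 in somatotropes, a ratio of 0.88 (0.73 to 1.03), and at 19.1 and 82.7 in corticotropes. Its ratio was also above 1.5-fold in pituitary fibroblasts (2.07) and PVN ependymal cells (0.64), but it was lower in PVN neurons, at -0.75 (-1.08 to -0.43), in melanotropes, at -0.74 (-1.58 to 0.01), and in zona glomerulosa, at -0.62 (-0.81 to -0.44).

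Single cells were then examined for joint detection, after thinning each to 1000 UMIs, by counting the cells with at least 3 of 10 interferon-stimulated genes (Ifit1, Ifit2, Ifit3, Isg15, Irf7, Oasl2, Rsad2, Usp18, Rtp4 and Xaf1). In adrenal endothelial cells this share was 24.2% (17.2 to 32.5) in the control and 31.5% (26.0 to 37.4) in the stress library. In PVN endothelial cells it was 11.8% and 9.21%, and in pituitary endothelial cells 6.80% and 6.50%. Adrenal macrophages had 4.01% and 3.84%, pituitary macrophages 0.91% and 5.45%, and stem or folliculostellate cells 2.65% and 1.62%. Adrenal mural cells, only 19 and 28 of them, had 21.1% (6.05 to 45.6) and 17.9% (6.06 to 36.9). Rsad2, which was far higher in adrenal than in other endothelium, is among the 10 genes, and the share without it was not counted. None of the 216 and 173 microglia reached 3 genes, and none of the 1589 and 1579 neurons. The upper ends of the exact intervals for these shares of 0 were 1.69% and 2.11% in microglia and 0.232% and 0.233% in neurons. Between control and stress the intervals overlapped in all of these classes. Without thinning the adrenal endothelial shares were 80.3% and 82.4%, at median depths of 4842 and 4276 UMIs.

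**Figure D5:**
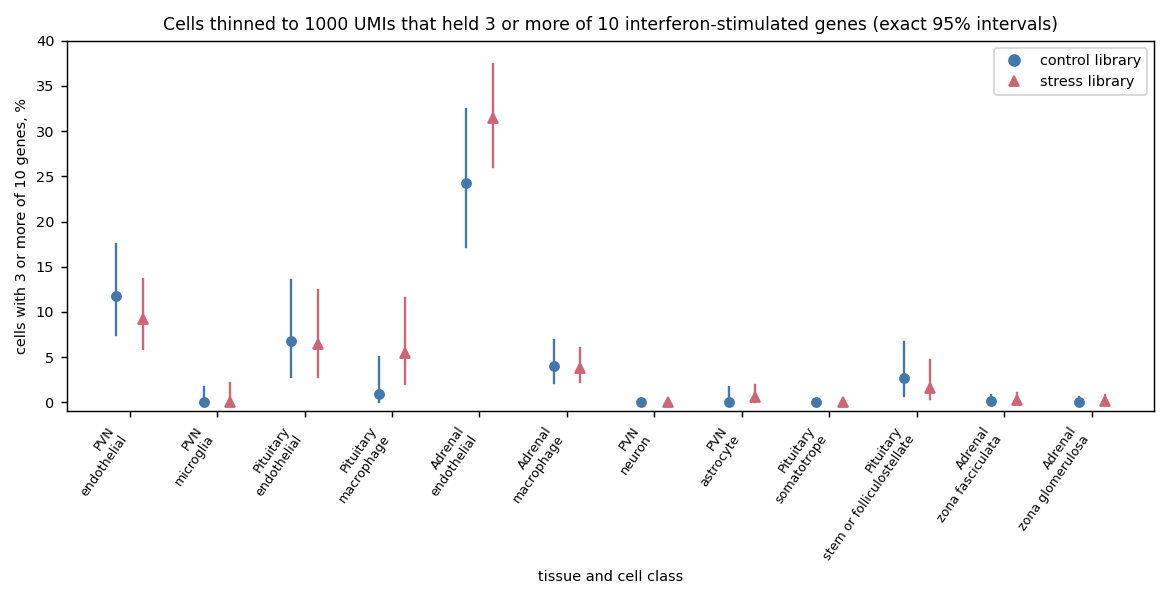
Share of cells with at least 3 of 10 interferon-stimulated genes after thinning to 1000 UMIs, by cell class and library, with exact binomial 95% intervals. Among the classes drawn, adrenal endothelial cells are highest, at 24.2% and 31.5%, and microglia are at 0. Adrenal mural cells are not drawn.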

How the data were processed

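The deposited matrices hold raw UMI counts per gene and cell barcode, which the authors made with Cell Ranger 2.1.1 on mm10, per the submitters' processing notes, which also name Scanpy. Annotation, strand and cell calling are not given in the sources used here. Both the 36 genes and the pathway lists were chosen with earlier results of these data known.

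Barcodes under 200 genes or above 25% mitochondrial UMIs were dropped, and presumed doublets, at 0.8% per 1000 cells, were left out by similarity to simulated doublets (39 to 213 per library). Control and stress cells of a tissue were clustered together (scanpy 1.11.5, leidenalg 0.10.2; 2000 variable genes, 30 principal components, 15 neighbours, resolution 1). A class needed 3 markers, and 2 limits of the naming rule were chosen once clusters were known. Counts were summed per class and library. With 1 library per group, no test was made. Intervals are exact Poisson, conditional or Clopper-Pearson, from scipy 1.17.1, and cover counting error only. Stress ratios were given for classes of at least 50 cells in both libraries. Shares of cells with several interferon-stimulated genes were taken after thinning to 1000 UMIs. Shares of cells with a UMI of a single gene are at full depth, except where thinning is named. All 36 genes were accounted for, with values for those highest in a class and for up to 5 per direction and class with the largest stress ratio, and pathway genes were named only among the 3 largest ratios of their list. The scripts were tested on simulated data. Alternatives covered the filters, doublets, resolution, scaling, depth, UMI minimum and clustering, and 2 were added after seeing the data.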

Additional observations from a re-analysis of the deposited data

How the results depend on the processing

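No paired analysis was possible because no label pairs the libraries within a tissue, and a fit that takes the 3 tissues as pairs was not made. The 66 calls of a gene in a class gave 824 values under the alternatives, of which 735 kept their direction and stayed within the counting interval, 70 moved and 19 reversed. For the cases below the cause was not tested, except that thinning leaves fewer UMIs and a lower minimum admits more genes.

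The counts of genes at least 1.5-fold different were 0, 1 and 9 in PVN endothelial, immune and parenchymal classes, 4, 4 and 22 in those of the pituitary and 5, 5 and 15 in those of the adrenal. Thinned to 1000 UMIs they were 1, 0 and 0 for PVN, 1, 2 and 9 for pituitary classes, and 1 and 3 in adrenal immune and parenchymal classes. With a minimum of 20 UMIs they were 5 and 26 in PVN immune and parenchymal classes and 10 and 37 in those of the pituitary. Without a minimum they were 2, 13 and 84 for PVN classes, 11 and 81 in pituitary immune and parenchymal classes and 23 in adrenal parenchymal classes. As means over cells they were 1 in PVN and 2 in adrenal endothelial cells. With the ratio in all other cells subtracted they were 9 in PVN endothelial, 10 in pituitary endothelial, 2 in pituitary immune and 14 in adrenal immune cells. With each library clustered alone they were 2 in pituitary macrophages and 2 in adrenal endothelial cells. Under the alternatives chosen after seeing the data, they were 2 in pituitary immune, 14 in pituitary parenchymal and 8 in adrenal endothelial classes without the 5 cells with the most UMIs, and 4 in PVN parenchymal classes without cells holding an immune marker.

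The counts of genes at least 2-fold above parenchyma were within 1.5 times of those reported in all alternatives run except thinning, which left 10 (from 30) in PVN endothelial cells, 6 (from 19) in microglia, 19 (from 34) and 20 (from 32) in pituitary endothelial cells and macrophages and 18 (from 34) and 18 (from 30) in those of the adrenal.

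Thinning reversed the log2 ratio of Ifit3 in astrocytes (-0.082), Irf1 in gonadotropes (1.13) and stem or folliculostellate cells (1.20), Isg15 in pituitary macrophages (-0.18) and cortical cells of unclear zone (-1.03), H2-Ab1 in somatotropes (0.0585), Psmb8 in pituitary fibroblasts (-0.14), and Cd74 (0.39) and H2-Eb1 (0.29) in adrenal endothelial cells. Without the 5 top cells, Ifit1 in tanycytes (1.25), and Cd74 (1.03) and H2-Eb1 (1.22) in adrenal endothelial cells reversed, and Cd74 was at 0.00446 there as a mean over cells. Clustered alone, Ifitm3 in melanotropes (0.99) and Isg15 in cells of unclear zone (-0.64) reversed. With other cells subtracted, Ifit2 (-0.89) and Rsad2 (-0.0714) in adrenal macrophages and Isg15 in zona fasciculata (-0.0867) reversed, and at resolution 0.5 H2-Ab1 in zona glomerulosa did (-0.0748).

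Without thinning, cells with at least 3 interferon-stimulated genes made up 66.3% and 62.3% of PVN, 37.9% and 42.3% of pituitary and 80.3% and 82.4% of adrenal endothelial cells, 20% and 20% of pituitary and 38.8% and 51.2% of adrenal macrophages, and Cd74 was found in 72.2% and 68.1% of stem or folliculostellate cells. PVN endothelial cells gave no value at resolution 2, and cortical cells of unclear zone none at resolution 0.5 or without the cell filter. Counting error is the only error measured, and the spread between animals is unknown.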

Other observations

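An unnamed adrenal cluster led by Ccl5, Gzma, Gzmb and Nkg7 (34 control and 59 stress cells) had 9 of 23 measured genes at least 1.5-fold higher in the stress library, beside 15.4% of all genes, and none lower, beside 10.7%. Isg15 was at 49.0 (25.3 to 85.5) and 147 (118 to 181) CPM, Rtp4 at 24.5 and 95.9, and Rsad2 at 8.16 (0.99 to 29.5) and 89.3 (67.1 to 116). Ifit3 counted 0 and 14 UMIs and Usp18 0 and 16. Ifitm3 did not follow, at 669 and 501. Class II genes were also higher in its stress cells, Cd74 being at 15613 and 27073 and H2-Aa at 4255 and 7115. The 10 macrophage markers, summed, were at 6466 and 10999 CPM in the cluster and the T or NK cell markers at 1273 and 370.3, and their part in these values was not tested. The cluster was chosen after its values were seen.

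An unnamed PVN cluster led by Vtn, Rgs5 and Kcnj8 (48 and 41 cells), with all 9 endothelial markers found but 5 mural and 0 endothelial markers among its 10 leading genes, held Ifitm3 at 1345 and 1280, Isg15 at 237 and 193, Ifit1 at 159 and 76.1 and Rsad2 at 86.9 (62.3 to 118) and 19.0 (7.65 to 39.2), with no Cd74 UMI in either library. Among 374 PVN astrocytes of the stress library, 2 held at least 3 of the 10 interferon-stimulated genes after thinning, and one of them held 8. Without thinning the highest number in a cell was 9. No control astrocyte of 212 held more than 2 of these genes after thinning.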
